A study of Bos taurus with 24 samples.

Results

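The miR-193 and miR-365 microRNAs were followed in small RNA libraries of bovine mammary gland biopsies. They were the rows of the deposited tables named exactly bta-miR-193a-3p, bta-miR-193a, bta-miR-193b, bta-miR-365-3p and bta-miR-365-5p (the species prefix is left out from here on), and these 5 of the 796 listed miRNAs were present in both tables. The family was chosen by the fold change of miR-193a-3p between the periods in Holstein cows (HOLS), where it fell after feed restriction, so the HOLS values of that contrast describe the choice and nothing is inferred from them. The biopsies came from 11 multiparous lactating cows, 5 HOLS and 6 Montbéliarde (MONT), each sampled before restriction (CONT) and again after 6 days of it (REST). All cows had free access to a mixed ration in CONT, and in REST the feed was limited to 60% of the net energy requirement for lactation according to the labels, while the methods of the study give a lower share. The biopsy site alternated between the rear parts of the udder, so the CONT and REST samples of a cow are different pieces of gland, and a whole biopsy holds epithelium, stroma, vessels and blood. In such tissue, fewer cells of a type and less RNA per cell cannot be told apart. Total counts per library lay between 6087865 and 18913916. Depth differed between the groups compared. The median total for HOLS was 10786816 before restriction and 14376578 after it. For MONT the medians were lower, at 9107961 before and 10756329.5 after. The paper proposes poorer MONT libraries among the possible reasons why it found no changed miRNA in that breed. The part of depth and library quality in the differences between periods and breeds was not tested. The libraries of cow 9615 (MONT) stood apart. Its CONT and REST libraries deviated from their group means in opposite ways, with a correlation across miRNAs of -0.21 where the other 10 cows lay between 0.10 and 0.70, its marker miRNAs of stroma and epithelium ran opposite to those of the other 5 MONT cows, and its REST library had the lowest total of the REST libraries (7817027). An exchange of the period labels of this cow was not tested, and the main MONT fold changes and ratio changes of the members are therefore given with and without it. The sign-flip p in MONT, the correlations within MONT and the MONT calls of the marker and adipocyte lists are given only with it.

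A microRNA hairpin is cut into 2 mature arms, named 5p and 3p, and usually the strand that is loaded into Argonaute is kept while its partner is degraded. In mammals miR-193b lies beside a copy of miR-365, miR-193a lies close to another copy, and miR-193a-3p and miR-193b share their seed. In the mouse mammary gland the miR-193b locus is activated by STAT5, the transcription factor that prolactin uses in lactating epithelium, and it restrains stem and progenitor cell activity. The cluster of miR-193b and miR-365 is also known for a role in brown adipocyte differentiation, and miR-193a-3p for limiting proliferation in tumour cells. The study aligned its reads to btau5.0.1, and in the RefSeq gene table of another assembly (ARS-UCD2.0) MIR193B and MIR365-1 were next to each other. MIR365-2 and MIR193A were on another chromosome with MIR2333 as the only gene listed between them. A further gene, MIR193A-2, stood on a different chromosome again, between ZNF623 and ZNF707. The tables give a single count for miR-365-3p, so its reads cannot be assigned to MIR365-1 or MIR365-2.

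miR-193a-3p was the most abundant member. Counts divided by a size factor estimated over all 22 libraries are called normalized counts here, and reads of mature miRNAs are not divided by length because the molecules are of similar size. Over the 22 libraries miR-193a-3p averaged 699 normalized counts and ranked 136 of 796 miRNAs. miR-193b averaged 343 (rank 159), miR-365-3p 325 (rank 161) and miR-193a 61.7 (rank 245). The levels of miR-193b and miR-365-3p did not differ beyond their spread, with a log2 ratio of 0.04 ± 0.39 (SD over 22 libraries). miR-365-5p, the partner arm of miR-365-3p, was nearly absent and averaged 0.61 normalized counts. The other listed arm of the miR-193a hairpin, miR-193a-5p, is no member but is given for the comparison of arms, and it averaged 266 (rank 168).

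In HOLS, miR-193a-3p had 867, 701, 716, 815 and 818 normalized counts in CONT and 555, 510.0, 488, 567 and 534 in REST, in cows 1155, 1165, 2182, 8200 and 9195. Each REST value lay below each CONT value, which was the case for 5.61% of the 374 miRNAs tested in HOLS, and nothing is read from this because the same contrast chose the family. It was lower in REST in each of the 5 cows, as were 14.4% of all miRNAs tested. The CONT mean was 783 ± 71.4 and the REST mean 531 ± 32.2 (SD, n = 5), and the log2 change per cow lay between -0.64 and -0.46. In the fit across all miRNAs its log2 fold change was -0.57 with a standard error of 0.11. In MONT, where the spread was wider, miR-193a-3p lay between 421 and 1750.4 before restriction (median 883) and between 320.1 and 876 after it (median 469). The periods overlapped in MONT because cow 9615 went from 421 to 876, while the log2 change of the other 5 cows lay between -1.77 and -0.63. The MONT groups were 946 ± 451 and 521 ± 209 (SD, n = 6).

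**Figure D1:**
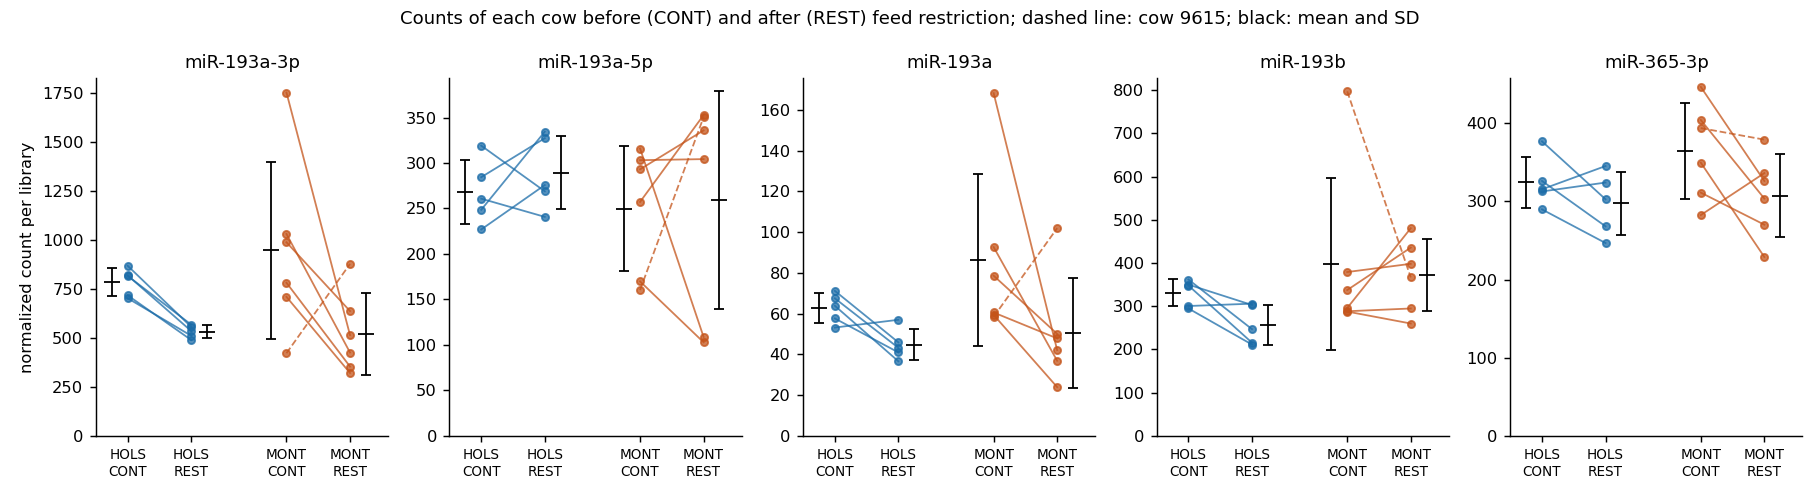
Normalized counts (vertical axes, each from 0) of miR-193a-3p, miR-193a-5p, miR-193a, miR-193b and miR-365-3p in each library, with a line joining the CONT and REST biopsies of a cow, HOLS in blue and MONT in orange, cow 9615 dashed, and the mean and SD of each group in black. The 5 HOLS lines of miR-193a-3p all descend from 701 to 867 in CONT to 488 to 567 in REST, and in MONT cow 9615 is the single cow whose line rises.

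The paralog miR-193b was lower in REST than in CONT in HOLS on average and showed no common direction in MONT. In the 5 HOLS cows, in the order above, it had 349.9, 295, 362, 348 and 300.3 normalized counts in CONT and 303, 211, 247, 215 and 306 in REST, lower in 4 cows and almost level in cow 9195, and the periods overlapped. Its fitted log2 fold change in HOLS was -0.37 (standard error 0.15). In MONT the CONT counts lay between 287 and 797 (median 317) and the REST counts between 259.8 and 480.4 (median 382). The CONT value of 797 belonged to cow 9615, and the remaining MONT cows lay at or below 379. The group values in MONT were 397 ± 199 and 372 ± 83.8 (SD, n = 6), and 4 of 6 cows were higher in REST.

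The row named miR-193a, without an arm, moved with miR-193a-3p at a lower count. In HOLS it had 57.6, 53.1, 63.8, 71.1 and 67.5 normalized counts in CONT and 40.9, 56.9, 36.6, 45.9 and 43.2 in REST, lower in 4 cows and higher in cow 1165. In MONT the CONT counts lay between 58.4 and 168 (median 69.6) and the REST counts between 23.9 and 102 (median 44.9), lower in 5 of 6 cows. Its log2 fold change was -0.51 in HOLS (standard error 0.15) and -0.83 in MONT (standard error 0.38). The count of miR-193a-3p was between 6.89 and 16.04 times that of miR-193a in the 22 libraries, with a log2 ratio of 3.49 ± 0.31 (SD). The study's handling of reads that match both rows is not given in the sources used here, so whether they share reads is unknown. The periods overlapped in both breeds.

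miR-365-3p, the neighbour of both miR-193 genes, had fold changes smaller than 2 standard errors in both breeds. In HOLS it had 377, 289.8, 326, 313 and 316 normalized counts in CONT and 303, 247, 268, 324 and 345 in REST, with 3 cows lower and 2 higher. In MONT the CONT counts lay between 283 and 447 (median 372) and the REST counts between 229 and 379 (median 315), lower in 5 of 6 cows. The periods overlapped in both breeds. The log2 fold change was -0.13 in HOLS (standard error 0.14) and -0.27 in MONT (standard error 0.18). Its partner miR-365-5p was counted 8 times in all HOLS libraries and 9 times in all MONT libraries, and 13 of 22 libraries held no read of it. It made up 0.216% of the reads of both arms in HOLS (95% exact Clopper-Pearson interval 0.0934 to 0.426) and 0.235% in MONT (0.108 to 0.446). These intervals cover counting error only. No library held more than 5 reads of miR-365-5p, so a change of this arm was not detectable at this depth, and it did not pass the filter on low counts in any comparison.

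The question of the study was whether restriction altered mammary miRNAs and whether the breeds differed. Of the 5 members, 4 passed the filter and were tested by edgeR's quasi-likelihood test over all miRNAs with Benjamini-Hochberg adjustment and a threshold of 0.05. In HOLS, whose contrast chose the family, 1 of the 4, miR-193a-3p, was past the threshold, beside 2.41% of all miRNAs tested. With the cow as a block there were 2 of the 4, miR-193a-3p and miR-193a, beside 16.3% of all miRNAs. These counts restate the choice of the family and are no test of it, and the call of miR-193a-3p was absent without cow 1155, 1165 or 8200 or without the filter.

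In MONT, cows that did not enter the choice of the family, 0 of the 4 tested members and 0.0% of the 349 miRNAs were past the threshold, by edgeR and by DESeq2. At an unadjusted p under 0.05 there were 2 of the 4, miR-193a-3p and miR-193a, both lower in REST, beside 13.5% of all miRNAs and 8.31% counting only those lower in REST. The log2 fold change of miR-193a-3p was -0.90 with a standard error of 0.34 and an adjusted p of 0.314 from edgeR, and that of miR-193a had an adjusted p of 0.355. For miR-193b the log2 fold change was -0.08 with a standard error of 0.25 (edgeR adjusted p = 0.858), and miR-365-3p had an adjusted p of 0.448. The median of the 4 was -0.55 beside -0.01 over all miRNAs tested. A two-sided exact sign-flip permutation test of the log2 change of the 6 cows gave p = 0.0938 for miR-193a-3p, 0.125 for miR-193a, 0.938 for miR-193b and 0.125 for miR-365-3p, where 0.0313 is the smallest value it can give.

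The MONT values depended on cows 9615 and 2614. Without cow 9615 the log2 fold change of miR-193a-3p was -1.27 (standard error 0.27, edgeR adjusted p = 0.0149) and that of miR-193a -1.25 (standard error 0.33, edgeR adjusted p = 0.0346), both past the threshold beside 12.8% of the 358 miRNAs then tested, and 5.59% when only lower ones are counted. miR-193b turned to 0.21 (standard error 0.21, edgeR adjusted p = 0.485) and miR-365-3p was at -0.33 (adjusted p = 0.214). Cow 9615 is the one that moved against the others in miR-193a-3p, so the values without it are not independent evidence of a fall. Without cow 2614, which had the highest CONT count, the values went the other way, to -0.56 for miR-193a-3p (standard error 0.32, edgeR adjusted p = 0.869) and -0.41 for miR-193a (standard error 0.35, edgeR adjusted p = 0.874).

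**Figure D2:**
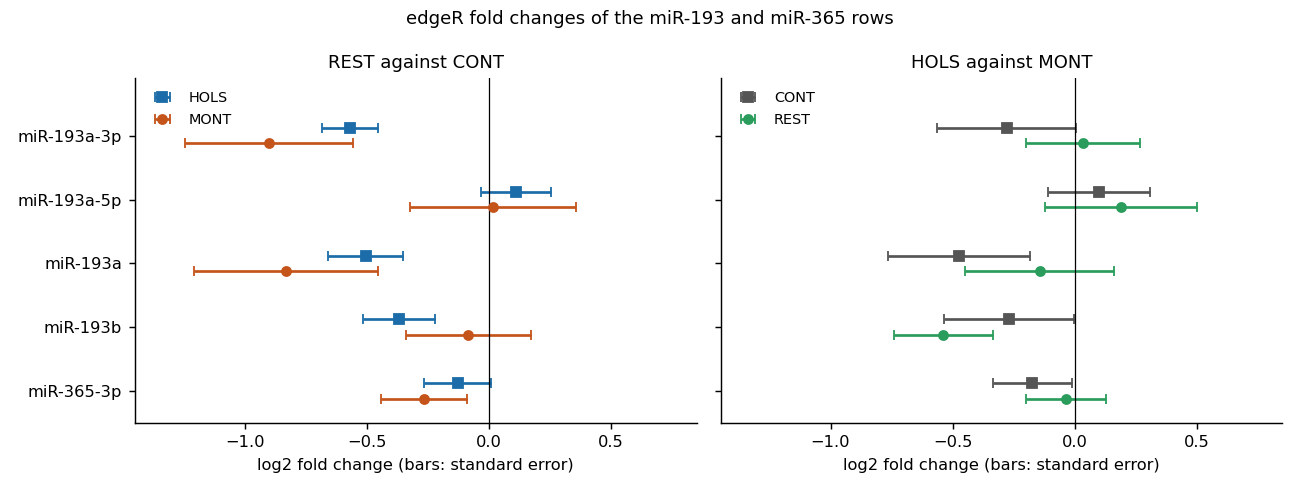
Log2 fold changes (horizontal axes) with standard errors from edgeR for miR-193a-3p, miR-193a-5p, miR-193a, miR-193b and miR-365-3p, REST against CONT within HOLS and MONT at the left and HOLS against MONT within CONT and REST at the right. miR-193a-3p and miR-193a lie below 0 in both breeds at the left, from -0.90 to -0.51, while miR-193a-5p lies at 0.11 in HOLS and 0.02 in MONT.

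The change was not shown to differ between the breeds for any member. The interaction of breed and period had a log2 difference of -0.33 for miR-193b (standard error 0.32) and 0.08 for miR-365-3p (standard error 0.21), and the edgeR adjusted p was 0.991 for miR-193a, miR-193b and miR-365-3p. Over all 388 miRNAs tested 0.0% were past the threshold by edgeR and by DESeq2, and 0.773% had an unadjusted p under 0.05. For miR-193a-3p the difference, which contains the contrast that chose it, was 0.26 with a standard error of 0.39. Without cow 9615 the differences were -0.66 for miR-193b (standard error 0.25, edgeR adjusted p = 0.460) and 0.63 for miR-193a-3p (standard error 0.30), and without cow 2614 that of miR-193a-3p was 0.03.

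The levels of the members in HOLS and MONT, which the choice of the family did not use, were compared within each period in 11 cows. Before restriction the 4 tested members had log2 differences (HOLS minus MONT) from -0.47 for miR-193a to -0.17 for miR-365-3p, where 51.7% of all miRNAs had a difference below 0, and 0 passed the threshold, beside 0.556% of 360 miRNAs. The difference of miR-193a-3p was -0.28 (standard error 0.29, edgeR adjusted p = 0.626) and 0.0035 without cow 2614, which had the highest CONT value of the series. That of miR-193a was -0.15 without the same cow. Without cow 9615 the difference was -0.43 for miR-193a-3p and 0.05 for miR-193b. After restriction 0 of 4 members passed beside 15.3% of 378 miRNAs. The member with the lowest p was miR-193b, which was lower in HOLS than in MONT by a log2 difference of -0.54 (standard error 0.20, edgeR adjusted p = 0.0806). REST values of miR-193b lay between 211 and 306 in HOLS and between 259.8 and 480.4 in MONT and thus overlapped. In the same libraries 3 of the 4 stromal marker rows described further on were lower in HOLS past the threshold. Of the 9 epithelial rows, miR-141 (1.06) and miR-200c (0.99) were higher in HOLS past it and miR-205 (-0.59) was lower. The endothelial row miR-126-3p (0.53) was also higher in HOLS past it. The part of tissue composition in the difference of miR-193b was not tested. DESeq2 gave an adjusted p of 0.0359 for this difference, and edgeR without cow 1640 gave 0.0419, while without cow 9615 it gave 0.0664. For miR-193a-3p in REST the breeds differed by 0.04 (standard error 0.23).

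Ratios within a library do not depend on its scaling and compare the arms and paralogs directly. The ratio of miR-193a-3p to the partner arm miR-193a-5p was lower in REST than in CONT in each of the 11 cows. In HOLS miR-193a-5p had 249, 261, 319, 227 and 284 normalized counts in CONT and 334, 241, 269, 276 and 327 in REST, with 3 cows higher and 2 lower. The 3p to 5p ratio in HOLS was 3.48, 2.68, 2.24, 3.58 and 2.87 in CONT and 1.66, 2.11, 1.81, 2.05 and 1.63 in REST, so that the periods did not overlap. The mean log2 change was -0.67 ± 0.33 (SD, n = 5), a description since it contains the contrast that chose the family.

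In MONT the same ratio was 2.56 to 5.53 before restriction and 1.16 to 4.70 after it. It was lower in REST in 6 of 6 cows, by a mean log2 change of -0.74 ± 0.57 (SD, n = 6) with single cows from -1.47 to -0.07. In cow 9615 both arms were higher in REST, the 3p arm going from 421 to 876 and the 5p arm from 160.3 to 350.5 normalized counts, and the ratio was nearly level at 2.61 and 2.49. A two-sided exact sign-flip permutation test gave p = 0.0313, the smallest value that 6 cows allow, and adjusted over the 16 tests of ratios it was 0.439. Without cow 9615 the mean change was -0.87 ± 0.52 (SD, n = 5). A ratio lower in every cow was found for 17.4% of the 23 hairpins in MONT whose arms were both listed and tested, for 21.7% in HOLS, and for 8.7% (miR-142 and miR-193a) in both breeds. Among the 23 hairpins, miR-193a ranked 2 in HOLS and 3 in MONT from the most negative change of this ratio. Its HOLS rank and its place among the hairpins lower in HOLS or in both breeds contain the contrast that chose the family. Nothing is read from them. The comparison with other hairpins was added after the values of miR-193a had been seen.

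miR-193a-3p was 2.36 times miR-193b in HOLS CONT and 2.09 times in HOLS REST (geometric means), and the log2 change of -0.18 ± 0.34 (SD, n = 5) was below 0 in 3 of 5 cows. In MONT these ratios were 2.34 and 1.34, and the log2 change was -0.80 ± 1.56 (SD, n = 6), lower in 5 of 6 cows, with an exact permutation p of 0.281 (adjusted 0.563). Much of this spread came from cow 9615, without which the change was -1.40 ± 0.64 (SD, n = 5), and without cow 2614 it was -0.53. Relative to miR-365-3p, miR-193a-3p changed by -0.43 ± 0.22 in HOLS (SD, n = 5), lower in 5 of 5 cows, and by -0.57 ± 0.91 in MONT (SD, n = 6), lower in 5 of 6 cows (exact permutation p = 0.188), and -0.91 ± 0.44 without cow 9615. The ratio of miR-193b to its neighbour miR-365-3p was close to 1 in each group, from 0.858 in HOLS REST to 1.20 in MONT REST (geometric means). In HOLS it changed by -0.25 ± 0.31 on the log2 scale (SD, n = 5), and in MONT by 0.23 ± 0.83 (SD, n = 6, exact p = 0.469) or 0.49 ± 0.61 without cow 9615 and 0.016 without cow 1652. Without cow 8200 the HOLS change was -0.13. Of the 16 ratio tests, 1 of which was on the HOLS change of miR-193b to miR-365-3p and is not read, 0 passed the threshold after adjustment, and 1 did before it. The lowest p between breeds were those of the ratio of miR-193b to miR-365-3p in REST, lower in HOLS by 0.48 on the log2 scale (exact permutation p = 0.0563, adjusted 0.439), and of miR-193a-3p to miR-193b in REST (difference 0.64, exact permutation p = 0.0823, adjusted 0.439).

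**Figure D3:**
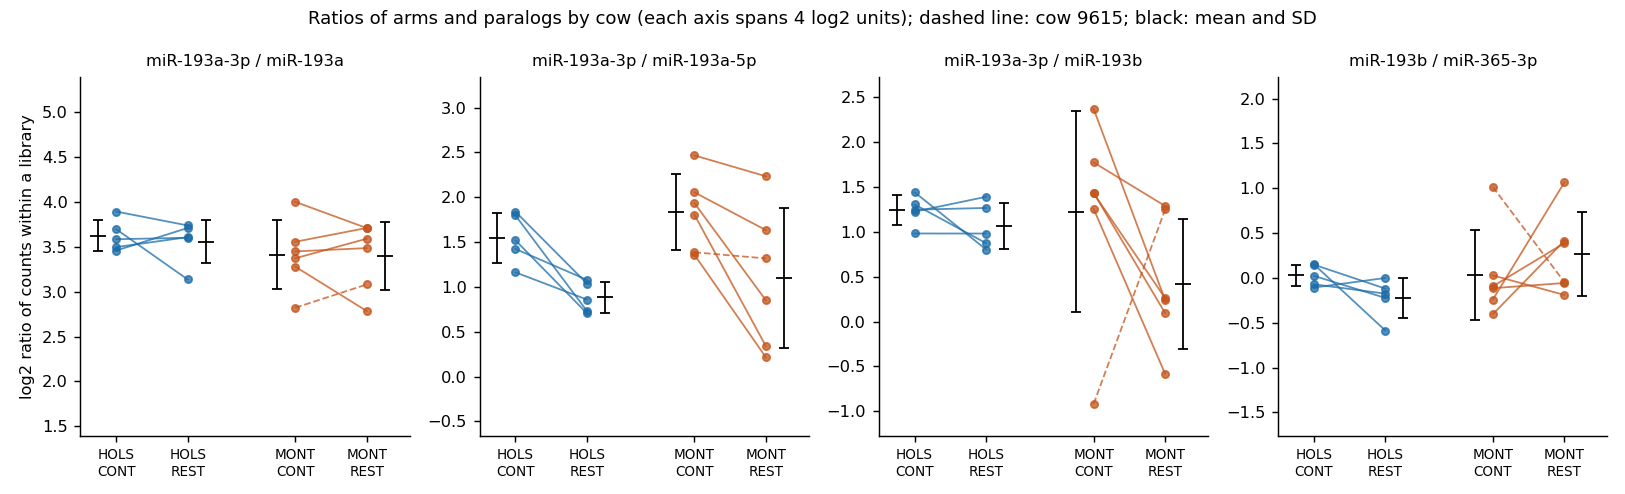
Log2 ratios of counts within a library (vertical axes, each spanning the same number of log2 units) for miR-193a-3p to miR-193a, miR-193a-3p to miR-193a-5p, miR-193a-3p to miR-193b and miR-193b to miR-365-3p, with a line for each cow, cow 9615 dashed, and the group mean and SD in black. The lines of the 3p to 5p ratio descend in all 5 HOLS and all 6 MONT cows, whereas those of miR-193b to miR-365-3p cross.

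The members did not vary as a single unit between cows. Over the 11 cows, relations with the change of miR-193a-3p hold the HOLS values that chose the family. The permutations also exchanged cows across breeds, although the SD of that change was 0.07 in HOLS and 0.99 in MONT. The relations of changes over 11 cows are therefore descriptions, and nothing is inferred from their p. After subtraction of the breed mean, the log2 changes of miR-193a-3p and miR-193a had a Pearson r of 0.92 (permutation p adjusted over 12 relations = 0.0024) and a Spearman rho of 0.84 (adjusted p = 0.0271) over the 11 cows. Without cows 2614 and 9615 this r was 0.67, and within the 6 MONT cows it was 0.95 (adjusted exact p = 0.0333). miR-193a-3p and miR-193b, which share a seed, had negatively correlated changes, with r = -0.85 (adjusted permutation p = 0.0236) and rho = -0.75 (adjusted permutation p = 0.0572). This relation rests on cows 2614 and 9615, since r was -0.53 without them, and within MONT r was -0.90 with an adjusted exact p of 0.175. miR-193a and miR-193b had r = -0.79 (adjusted permutation p = 0.0236) and rho = -0.59 (adjusted permutation p = 0.120), and r was -0.45 without the same cows and -0.89 within MONT (adjusted exact p = 0.175). The neighbours miR-193b and miR-365-3p had r = -0.41 for the changes and 0.46 for the CONT levels, with adjusted permutation p of 0.287 and 0.246. Their rho was -0.46 and 0.67, with adjusted permutation p of 0.232 and 0.0835. HOLS alone has 5 cows, which are too few for a correlation.

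miRNAs whose pattern over the 22 libraries was most like that of a member were found by the Pearson correlation of log2 normalized counts, minus the mean of the breed, among the 348 miRNAs tested in both breeds. These values are descriptions, since the libraries of a cow are not independent and all values of a library share its scaling. For miR-193a-3p they were miR-669 (r = 0.89), miR-331-3p (0.88), miR-30f (0.87), miR-193a (0.87) and miR-2898 (0.85). All 5 had fitted log2 fold changes below 0 in both breeds, between -0.83 and -0.29. Nothing is read from this, since the period shift of miR-193a-3p is part of the likeness and the HOLS contrast chose the family. With the mean of each breed and period subtracted instead, the r of these 5 lay between 0.76 and 0.83. For miR-193b the nearest were miR-296-3p (r = 0.70), miR-9 (0.67) and miR-10174-3p (0.62), none of them among those of miR-193a-3p. For miR-365-3p they were miR-664b (0.71), miR-193a (0.67) and miR-877 (0.65), and for miR-193a they were miR-345-5p (0.88), miR-193a-3p (0.87) and miR-669 (0.82).

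Markers of cell types also differed between the CONT and REST biopsies of a cow, and their relation to the change of miR-193a-3p was not tested. The 4 rows of miR-199a, miR-199b and miR-214, taken as stromal, had summed normalized counts of 9327 to 12082 in HOLS CONT and 10714 to 15924 in HOLS REST. They were higher in REST in 5 of 5 HOLS cows, with log2 changes from 0.17 to 0.77. In MONT the sums were 8824 to 30175 before restriction and 15192 to 36904 after it, higher in the 5 cows in which miR-193a-3p was lower, and with a log2 change of -0.99 in cow 9615. The 4 rows had log2 fold changes above 0 in both breeds, 0 of them past the threshold in either by edgeR or DESeq2. At an unadjusted p under 0.05 in edgeR there were 1 in HOLS and 3 in MONT, beside 13.5% of all miRNAs in MONT. The HOLS share at that cutoff is not given here. The summed 9 epithelial rows (miR-141, miR-200a, miR-200b, miR-200c, miR-429, miR-205, miR-182, miR-183 and miR-96) were lower in REST in the same 5 MONT cows and had a log2 change of 0.80 in cow 9615, with 174159 to 560876 over all MONT libraries. In HOLS the epithelial sum was 305123 to 667419 and was higher in REST in 3 of 5 cows, while miR-193a-3p was lower in all 5. The epithelial sum was mostly miR-141, which averaged 264509 normalized counts, with miR-200c next at 39358. Row by row, 6 of the 9 had log2 fold changes below 0 in HOLS (median -0.10) and 7 of the 9 in MONT (median -0.27). The part of tissue composition in the change of miR-193a-3p was not tested.

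Among the other lists, the summed rows for smooth muscle (miR-143 and miR-145) were higher in REST in 5 of 5 HOLS and 4 of 6 MONT cows. The summed miR-126 rows for endothelium were higher in 5 of 5 and 4 of 6. In MONT the mean log2 change of the miR-126 sum was -0.06, with cows from -0.49 to 0.37. The fitted MONT log2 fold changes were -0.12 for miR-126-3p and -0.04 for miR-126-5p. The summed leukocyte rows (miR-142, miR-150 and miR-223) were higher in 4 of 5 HOLS and 5 of 6 MONT cows. The summed red blood cell rows (miR-451, miR-144 and miR-486) were higher in 4 of 5 and 3 of 6. The leukocyte and red blood cell sums were each mostly 1 row, miR-142-5p (26252 normalized counts on average) and miR-486 (36413). Likewise the smooth muscle sum was almost only miR-143 (2890350, beside 4200 for miR-145). The miR-126 sum was mostly miR-126-5p (293173, beside 26283 for miR-126-3p). Of the 4 leukocyte rows miR-223 had a log2 fold change below 0 in both breeds (-0.005 in HOLS, -1.30 in MONT). Of the 3 red blood cell rows, 2 had log2 fold changes below 0 in HOLS and 3 in MONT. Skeletal muscle rows summed to 426 to 1990.5 normalized counts and miR-206 was not listed. By edgeR 0 rows of the marker lists were past the threshold between the periods. At an unadjusted p under 0.05 the epithelial list had 3 in HOLS and 1 in MONT, beside 13.5% of all miRNAs in MONT. The HOLS share at that cutoff is not given here, so the 3 are not read as a result. In HOLS, DESeq2 called 27 of all 374 miRNAs. Among them were miR-143 of smooth muscle (log2 fold change 0.45 in edgeR) and miR-200b (-0.55) and miR-200c (-0.42) of epithelium. With the cow as a block edgeR called the same 3 and miR-145, miR-429, miR-126-3p, miR-142-5p and miR-486. That blocked fit called 16.3% of all miRNAs. Each of the 9 epithelial rows had counts, and in each group their lowest sum exceeded the highest sum of the stromal rows.

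**Figure D4:**
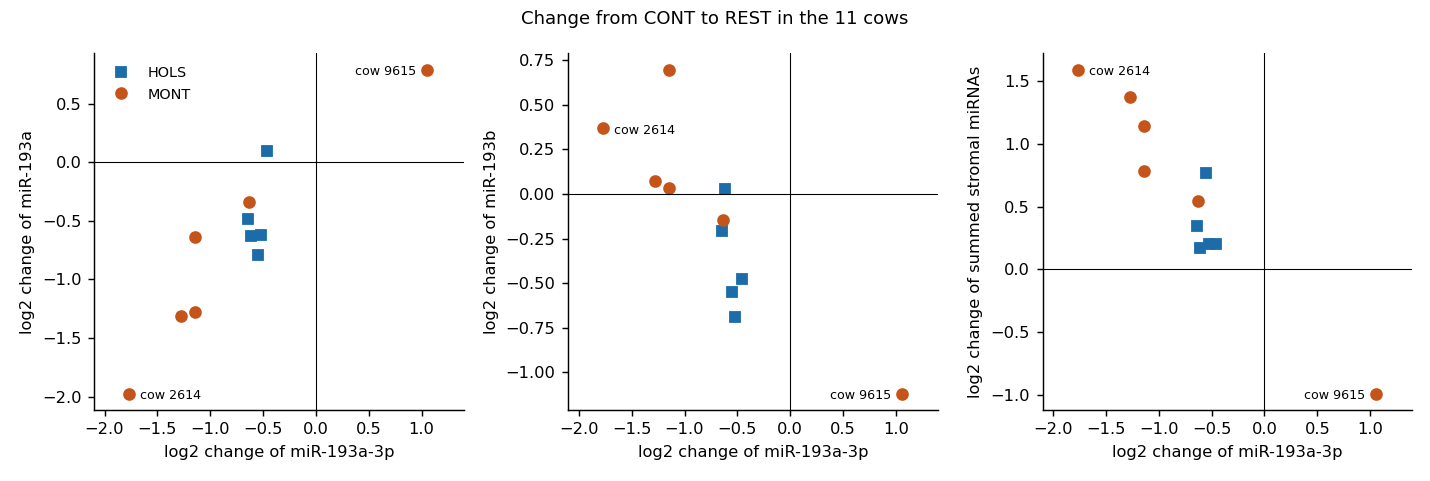
Log2 change from CONT to REST of miR-193a-3p in each of the 11 cows (horizontal axes) against that of miR-193a, miR-193b and the summed stromal rows (vertical axes), HOLS as blue squares and MONT as orange circles. Cow 9615 is the only point with a rise of miR-193a-3p (1.06) and has the lowest values of miR-193b (-1.12) and of the stromal rows (-0.99), while cow 2614 has the steepest fall of miR-193a-3p (-1.77).

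A list of 18 miRNAs known from brown or beige adipocyte differentiation, in which miR-193b and miR-365 also act, was read beside the members. It matched 20 rows, and miR-203 had no row of that name. By edgeR 0 of its 19 tested rows in HOLS and 0 of its 18 in MONT passed the threshold between the periods. At an unadjusted p under 0.05 there were 3 and 2, beside 13.5% of all miRNAs in MONT, and the HOLS share is not given here. The median log2 fold changes were 0.01 and 0.22. Members of the list were not sorted by whether they promote or restrain that differentiation, so no direction is read from the medians. In HOLS miR-155 (log2 fold change 0.55) passed the threshold by DESeq2, beside 27 of all 374 miRNAs. It also passed in the blocked edgeR fit, beside 16.3% of all miRNAs. DESeq2 called 0 rows of the list in MONT. Between the breeds 2 of 19 rows passed in REST, beside 9.79% of all miRNAs that were lower in HOLS past the threshold, and these were miR-196b (log2 difference -0.87, edgeR adjusted p = 0.0359) and miR-455-5p (-0.75, edgeR adjusted p = 0.0140), both lower in HOLS. In CONT 0 of 19 passed by edgeR, with 3 at an unadjusted p under 0.05, and DESeq2 called miR-455-5p, beside 20 of all 360 miRNAs. The share of all miRNAs at that unadjusted cutoff in CONT is not given here.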

How the data were processed

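The authors trimmed and size-selected the reads of TruSeq small RNA libraries, annotated them with ncPRO-seq and used miRDeep2 with miRBase and the bovine genome btau5.0.1. The deposited counts per miRNA are raw. The deposited normalized signal is each count over the DESeq2 size factor of its library, estimated by breed. The authors' mean normalized signal, log2 fold change and p-value columns were not used. The labels name a sixth HOLS cow, whose 2 samples were not analysed here.

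Normalized counts were recalculated with DESeq2 1.42.0 size factors over all 22 libraries, since the deposited ones were scaled by breed. Counts were tested with edgeR 4.0.16 (R 4.3.3) after TMM normalization and filterByExpr (minimum count 10), with Benjamini-Hochberg adjustment over all miRNAs and a threshold of 0.05, within each breed, within each period and for the interaction. Log2 values and ratios used a pseudocount of 1. Correlations used 100000 permutations, and ratios exact permutation tests. Biopsies with the same number come from the same cow, so the numbers pair the libraries. Deviations from the group mean of the libraries of a cow correlated with r from 0.10 to 0.70 in 10 cows and -0.21 in cow 9615. The fit without the cow was the main one, as the paper's methods name no block. The steps were tested on simulated data. The members, lists and tests were chosen with earlier results of these data known. The miRNAs named are the members, miR-193a-5p as the other arm, those most alike (5 for miR-193a-3p and 3 for each other tested member) and listed adipocyte miRNAs past the threshold. A part of the rule on shared seeds was not used here.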

Additional observations from a re-analysis of the deposited data

Results flagged for a closer look

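A value was set apart from the rest of its group by more than Dixon's critical ratio in 6 of the 40 groups of 5 or 6 libraries examined, where chance alone gives about 2. These groups are not independent, since the ratios reuse the counts of the members, so no excess is read from this. In MONT CONT, cow 2614 had 168 normalized counts of miR-193a against 58.4 to 92.6 in the other cows. In MONT REST, cow 9615 had 102 of miR-193a against 23.9 to 50.02. In MONT CONT, cow 9615 had 797 normalized counts of miR-193b against 287 to 379. The log2 ratio of miR-193a-3p to miR-193b in the same library was -0.92 against 1.26 to 2.37, and that of miR-193b to miR-365-3p was 1.01 against -0.40 to 0.03. Both ratios hold that same miR-193b count. In HOLS REST, cow 1165 had a log2 ratio of miR-193a-3p to miR-193a of 3.14 against 3.60 to 3.74.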

How the results depend on the processing

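Of the alternative values computed, 522 kept their direction and side of the threshold, 37 changed sign, 9 fell below the threshold, 5 newly passed it and 23 moved in size. Against 9 miRNAs past the threshold for the period in HOLS, DESeq2 called 27, edgeR without a filter 5 and edgeR with the cow as a replicate block 61. Against 2 for the breeds in CONT DESeq2 called 20, and against 58 in REST it called 89. With each cow left out in turn these counts were 3 to 14 (HOLS), 0 to 6 (CONT), 38 to 77 (REST), 0 to 46 (MONT, 46 without cow 9615) and 0 to 0 (interaction). The block changed no call of a member outside the HOLS contrast that chose the family. The correlations of the change of miR-193b with those of miR-193a-3p and miR-193a (r = -0.66 and -0.64) were not past the threshold with log2 CPM in place of normalized counts.

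The MONT change of miR-193a-5p turned from 0.02 to -0.091 with the replicate block and -0.078 as the mean over cows, an alternative chosen after seeing the data. The following log2 values changed sign when single cows were left out. For HOLS against MONT in CONT they were -0.43 to 0.0035 for miR-193a-3p, -0.35 to 0.054 for miR-193b and -0.0040 to 0.19 for miR-193a-5p. In REST they were -0.094 to 0.22 for miR-193a-3p, -0.31 to 0.14 for miR-193a, -0.13 to 0.022 for miR-365-3p and -0.026 to 0.31 for miR-193a-5p. For the MONT change they were -0.29 to 0.21 for miR-193b and -0.21 to 0.31 for miR-193a-5p, and for the interaction -0.049 to 0.69 for miR-193a and -0.17 to 0.25 for miR-193a-5p. Among the ratios, miR-193a-3p to miR-193a changed by -0.15 to 0.056 in HOLS and -0.076 to 0.075 in MONT, and the breeds differed by -0.39 to 0.012 for miR-193a-3p to miR-193a-5p in REST. In CONT the breeds differed by -0.41 to 0.25 for miR-193a-3p to miR-193b, -0.090 to 0.19 for miR-193b to miR-365-3p and -0.22 to 0.16 for miR-193a-3p to miR-365-3p. The cause of these shifts was not tested. The 11 cows and the low counts of miR-365-5p limit what could be detected.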
